A study of Homo sapiens with 8 samples.

Results

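The change in open chromatin that followed interferon gamma (IFNγ) was compared between wild-type (WT) cells and cells with a knockout (KO) of ZBTB48, region by region. Peaks of the 8 FAIRE-seq lists were joined into 52105 regions, of which 11551 had a peak in every list. In each of these regions the strongest peak of a list was given its percentile by −log10 p within that list, so 100 marks the strongest peak of a library. The change of a clone is its IFNγ percentile minus its untreated percentile, in percentile points. A region was called separated where both WT changes lay above both KO changes (WT-higher) or both lay below them (WT-lower). Of the 11551 regions, 4843 were separated, 678 of them WT-higher and 4165 WT-lower. The changes themselves chose these regions, so their counts and values are a description and carry no test of their own. Where a region is said to rise or fall in a clone, this gives the sign of the change between its 2 libraries and not a test.

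U2OS cells, a human osteosarcoma line, were used as 2 WT clones (WT_4 and WT_5) and 2 ZBTB48 KO clones (KO_C5 and KO_D2). Each clone gave 1 untreated library and 1 library after IFNγ at 250 U/ml, labelled as 24 h, while a longer exposure is named in the study's main text, so the duration is uncertain. FAIRE-seq recovers DNA that formaldehyde has not crosslinked to nucleosomes, and a peak marks open chromatin. A genotype here is a pair of single-cell clones, so what differs between genotypes cannot be told apart from what differs between clones by chance of their isolation.

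IFNγ binds the receptor made of IFNGR1 and IFNGR2, whose kinases JAK1 and JAK2 phosphorylate a STAT factor. Its dimers bind GAS elements and induce IRF1, which with other IRF factors opens and activates promoters of antiviral, immunoproteasome and MHC genes. ZBTB48 is a zinc finger protein that binds telomeric TTAGGG repeats and some promoters.

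The sequences below show a WT-lower, a WT-higher and a not separated region, as 151 bases around the summit on the forward strand of GRCh38, with matches to a CCAAT box (CCAAT on either strand) or a GAS element (TTCNNNGAA) in capitals. ALG10, at chr12:34022134-34022284, was among the 10 WT-lower regions with the widest gap between genotypes. VMP1, at chr17:59837732-59837882, was among the 10 WT-higher regions with the widest gap. IRF1, at chr5:132490813-132490963, is a promoter of the interferon pathway that was not separated.
ALG10 (37.7% GC, WT-lower): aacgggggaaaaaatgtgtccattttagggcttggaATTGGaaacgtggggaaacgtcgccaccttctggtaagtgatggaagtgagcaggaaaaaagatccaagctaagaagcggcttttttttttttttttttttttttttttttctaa
VMP1 (43.7% GC, WT-higher): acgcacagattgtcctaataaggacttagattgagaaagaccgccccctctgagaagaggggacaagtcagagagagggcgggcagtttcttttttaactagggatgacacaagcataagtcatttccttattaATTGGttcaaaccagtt
IRF1 (72.2% GC, not separated): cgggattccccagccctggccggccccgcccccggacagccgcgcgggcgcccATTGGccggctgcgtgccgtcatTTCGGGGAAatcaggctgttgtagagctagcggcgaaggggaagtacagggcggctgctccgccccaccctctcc

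The lists held 16730 to 37533 peaks, and with IFNγ WT_4 changed by -2802 peaks while WT_5 gained 7966, KO_C5 8202 and KO_D2 7997. The difference between the genotypes' mean changes was -5517.5 peaks (WT minus KO, SDs 7614 and 145, n = 2 clones per genotype, two-sided exact permutation p = 0.333, the smallest that 4 clones allow). The median local background of shared regions, in fragments, was 1.02 and 1.33 in the WT IFNγ lists and 2.73 and 3.21 in the KO IFNγ lists. Its part in the results was not tested. Open chromatin at the ZBTB48 promoter cannot show whether the gene product is made, so it is no check of the knockout. That promoter (chr1:6579648-6580236) had a peak in all 8 lists and was not separated. Its percentiles went from 90.5 to 83.7 in WT_4, 89.8 to 95.3 in WT_5, 64.0 to 72.2 in KO_C5 and 87.5 to 90.1 in KO_D2. Of 8 mesenchymal and osteoblast marker genes 5 had a promoter peak in all 8 lists, as did 3 of 5 epithelial and 0 of 5 blood markers.

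The WT-higher regions made up 5.87% and the WT-lower regions 36.1% of the 11551. This split rests on the scale. A within-list percentile depends on how many weaker peaks the list holds, and the lists of 3 of the 4 clones grew with IFNγ. When the 11551 regions were ranked only among themselves (common-region rank), 2652 (23.0%) were WT-higher and 2073 (17.9%) WT-lower. Both scales placed 660 regions (5.71%) in the WT-higher and 2005 (17.4%) in the WT-lower group. Thus 97.3% of the WT-higher but 48.1% of the WT-lower regions were separated the same way by common-region rank, and 72 WT-lower regions were separated the opposite way. By limma on the 4 within-clone changes, 0 of 11551 regions (0%) differed between genotypes at an adjusted p under 0.05, with 1471 at an unadjusted p under 0.05 and a lowest adjusted p of 0.326. The median SE of a difference was 10.3 percentile points. The count depended on KO_D2: with that clone left out, and the lone KO_C5 assumed to vary like the WT clones, 723 regions passed, against 15 without KO_C5, 2 without WT_5 and 0 without WT_4. With all 4 clones limma also depended on the scale: on the logit of the percentile 289 regions (2.50%) were called, 280 of them lower in WT, and on changes centred within bins of GC content, described below, 38 (0.329%) were called, 37 of them higher in WT.

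**Figure D1:**
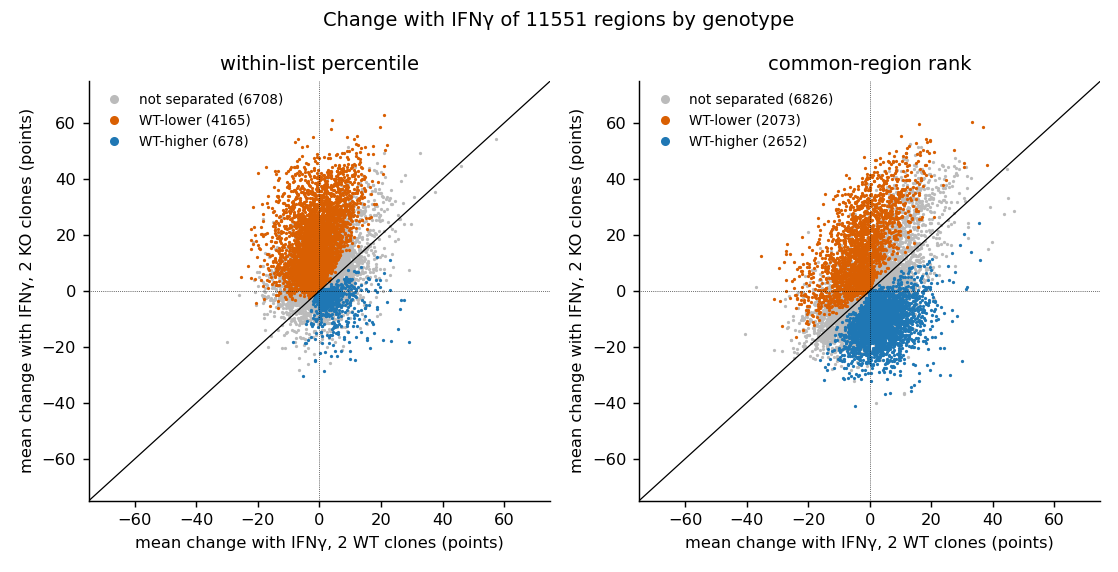
Mean change with IFNγ in the 2 WT clones (x axis) against the 2 KO clones (y axis), in points, for 11551 regions, by within-list percentile (left) and common-region rank (right). Orange marks WT-lower and blue WT-higher regions, the line marks equal change, and the blue group grows from 678 to 2652 regions with the change of scale.

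The KO clones moved most in the WT-lower regions, which were chosen by these changes, so the shares below follow in part from that choice. Of these 4165 regions, 3925 (94.2%) rose in both KO clones, against 56.2% of all regions. Their median change was 13.7 points in KO_C5 and 12.2 in KO_D2, against 1.59 in WT_5 and -3.71 in WT_4. Only 1086 (26.1%) fell in both WT clones, against 14.8% of all regions.

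The WT-lower regions were ordered by genotype more often before treatment than after it, and so were all regions. The untreated percentiles are part of the changes that chose the WT-lower regions. Their median untreated percentile was 70.2 in WT_4, 83.6 in WT_5, 62.4 in KO_C5 and 65.2 in KO_D2, and both KO libraries lay below both WT libraries in 2288 of the 4165 (54.9%, against 4623 of all 11551). After IFNγ the medians were 65.2, 86.2, 81.6 and 80.3 in the same order. The KO clones thus came to lie between the WT clones. In 340 regions (8.16%) both KO libraries lay above both WT libraries, against 4.88% of all regions. Both KO libraries lay below in 240 regions (5.76%), against 19.6% of all regions. WT_5 was high in both states, while WT_4 was the lowest of the 4 after IFNγ.

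The WT-higher regions showed smaller changes, and there the groups lay apart more often after treatment than before it. The percentiles of both states make up the changes that chose these regions. The shares below follow in part from that choice. The median change was 2.13 points in WT_4, 3.58 in WT_5, -2.46 in KO_C5 and -2.01 in KO_D2. Of the 678 regions, 479 (70.6%) rose in both WT clones and 440 (64.9%) fell in both KO clones, against 25.3% and 9.89% of all regions. Untreated, both KO libraries lay below both WT libraries in 100 of them (14.7%), against 4623 of all 11551. The KO libraries lay above in 73 (10.8%), against 1.91% of all regions. After IFNγ they lay below in 393 (58.0%), against 19.6% of all regions, and above in 4 (0.59%), against 4.88%. The gap between the nearest WT and KO change had a median of 2.04 points in WT-higher and 5.16 in WT-lower regions, and exceeded 20 points in 6 and 328 regions.

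**Figure D2:**
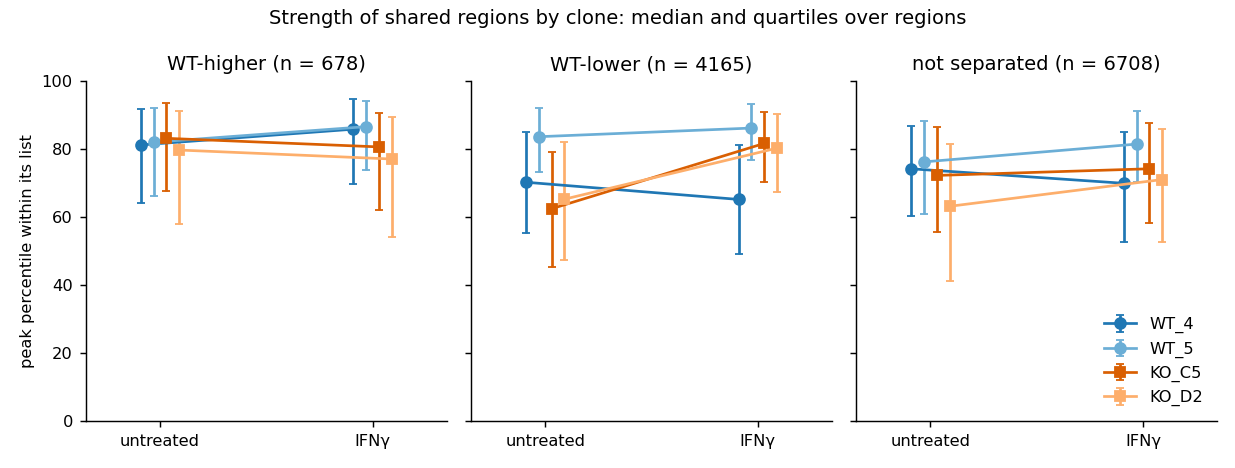
Percentile of the strongest peak (y axis) in untreated and IFNγ libraries (x axis) of the 4 clones, for WT-higher, WT-lower and other regions. Points are medians over regions and bars span the quartiles. In WT-lower regions the KO medians rise from 62.4 and 65.2 to 81.6 and 80.3, and in WT-higher regions the WT and KO medians part by a few points.

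At the edge of the rule, the WT-higher region with the narrowest gap was at SLC25A1, where the lower WT change (0.855) exceeded the higher KO change (0.852). Just outside it lay LRRC8B, with -1.73 points in both WT_5 and KO_C5. The narrowest WT-lower region was at OSER1-DT, with 0.0102 points in WT_5 and 0.0129 in KO_C5, and CLCN5 lay just outside, with 1.08 points in both WT_4 and KO_C5. Membership near these limits turns on differences far below the spread between clones.

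The separated regions differed in GC content. Around the summit the median GC content was 65.8% in WT-lower, 73.1% in WT-higher and 69.8% in all regions. In the fifth of regions with the lowest GC content (21.9% to 64.1%), 66.6% were WT-lower and 2.94% WT-higher, and in the fifth with the highest (75.4% to 88.4%) these shares were 14.6% and 9.13%. The median change between these groups went from 21.7 to -1.49 points in KO_C5 and from 14.4 to 4.42 in KO_D2. In WT_5 it stayed at 3.22 and 3.55, and in WT_4 it was -1.71 and -4.85. Across the 11551 regions the Spearman correlation of change and GC content was -0.58 in KO_C5, -0.29 in KO_D2, -0.13 in WT_4 and 0.02 in WT_5, a description over regions that share a library.

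**Figure D3:**
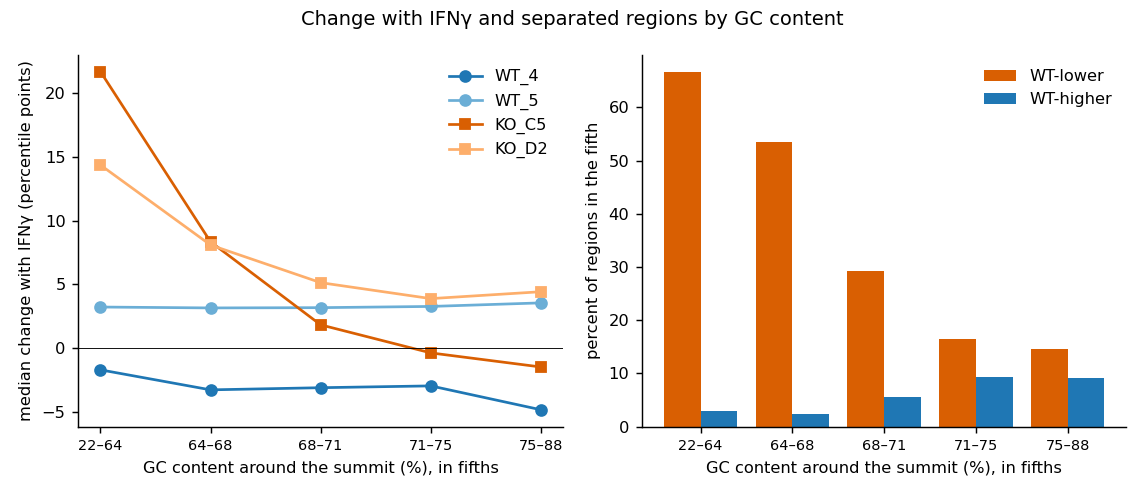
Left, median change with IFNγ (y axis, percentile points) in 5 equal groups of regions by GC content (x axis, %) for the 4 clones. Right, share of each group that was WT-lower or WT-higher (%). The KO changes decline with GC content, WT_5 stays near 3 points, and the WT-lower share goes from 66.6% to 14.6%.

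The change of each clone was therefore also taken relative to its median in the same of 20 bins of GC content. On that scale 1970 regions (17.1%) were WT-higher and 2033 (17.6%) WT-lower. Of the 4165 WT-lower regions, 1758 kept their direction and 348 were separated the opposite way, and of the 678 WT-higher regions 494 kept it and 0 turned. The part of GC-dependent recovery in library preparation or sequencing was not tested.

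C6orf226 had the widest gap of all regions (chr6:42890347-42891213, at an annotated start site with its summit in intergenic sequence). Its percentile went from 33.2 to 18.2 in WT_4, from 72.5 to 73.7 in WT_5, from 16.7 to 70.8 in KO_C5 and from 3.06 to 57.4 in KO_D2. The summit pileup, in fragments, went from 19 to 14, 62 to 61, 16 to 71 and 11 to 44 in the same order. The untreated KO libraries were low and rose by more than 50 points, and neither WT clone rose by more than 1.21. The change in WT minus that in KO was -61.05 ± 15.9 points (SE, limma, adjusted p = 0.326).

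FZD2, a Frizzled receptor of Wnt signalling, moved in opposite directions in the 2 genotypes at its promoter. Its percentile fell from 54.2 to 42.4 in WT_4 and from 74.4 to 69.9 in WT_5, and rose from 26.1 to 64.1 in KO_C5 and from 11.0 to 51.9 in KO_D2. SLC39A10, a zinc transporter, went from 44 to 31.2 in WT_4, 83.4 to 81.6 in WT_5, 13.3 to 62.0 in KO_C5 and 49.5 to 89.2 in KO_D2. ALG10, a glucosyltransferase of N-glycan assembly, went from 23.0 to 3.38, 53.0 to 43.3, 25.6 to 57.9 and 8.64 to 50.9 in the same order. In these 3 promoters both WT changes were negative and both KO changes exceeded 32 points.

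The others of the 10 widest WT-lower regions showed the same order of clones. They lay at MAGT1, a subunit of the oligosaccharyltransferase, UBXN1, a cofactor of the p97 ATPase, UST, a uronyl sulfotransferase, and nearest to LINC02596, LINC02703 and ENSG00000259891. Their KO changes ranged from 32.4 points (KO_C5 at UST) to 68.9 (KO_C5 at LINC02596), and their WT changes from -26.5 (WT_4 at UST) to 14.3 (WT_5 at LINC02596). All 10 were also WT-lower by common-region rank, by summit pileup and within GC bins, scales that use the same peaks and are not independent. In none of the 10 did the difference pass limma (lowest adjusted p = 0.326).

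Promoters of cytosolic ribosomal proteins were the largest listed group of WT-lower regions. Of the 58 promoter regions of this list in all 8 lists, 43 (74.1%) were WT-lower, against 36.1% of all regions, and 2 were WT-higher. The median change was 12.5 points in KO_C5, 9.35 in KO_D2, -0.94 in WT_4 and 1.03 in WT_5. The median of WT minus KO was -13.4 points, against -5.45 over all regions. By common-region rank 21 were WT-lower and 4 WT-higher, against 17.9% and 23.0% of all regions, and the median was -8.36. These promoters had a median GC content of 62.8%. Within GC bins 11 of the 58 were WT-lower and 14 WT-higher, against 17.6% and 17.1% of all regions, with a median of 1.34. The lower change of the list in WT was therefore not kept within GC bins.

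RPS25, a protein of the small subunit, was among the weakest peaks in both untreated KO libraries (chr11:119018254-119018936). Its percentile went from 29.6 to 6.37 in WT_4, 65.4 to 72.9 in WT_5, 0.688 to 60.4 in KO_C5 and 3.16 to 49.7 in KO_D2. RPL29, of the large subunit (chr3:51995683-51996285), went from 45.9 to 19.1, 76.7 to 77.1, 25.2 to 66.9 and 31.9 to 71.2. RPL4, in a region it shares with ZWILCH, rose in all 4 clones, by 19.3 and 15.5 points in WT and by 61.0 and 42.3 in KO. The WT-higher exceptions RPS21 and RPL35 differed by 2.78 and 4.69 points.

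Constitutive proteasome promoters followed with 9 WT-lower of 24 regions (37.5%), a share near that of all regions, and 0 WT-higher. Their median of WT minus KO was -8.93 points, and 2.43 within GC bins. PSMC5, an ATPase of the regulatory particle, went from 61.7 to 52.8 in WT_4, 77.9 to 81.7 in WT_5, 41.5 to 84.3 in KO_C5 and 49.5 to 80.0 in KO_D2.

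The interferon response list had 86 genes, and 24 of the regions lay at promoters of 25 of them. Of the 24, 12 rose in all 4 clones, against 15.9% of all regions. The median change was 3.70 points in WT_4, 14.5 in WT_5, 7.67 in KO_C5 and 18.4 in KO_D2. Only 3 (12.5%) were WT-lower and 1 (4.17%) WT-higher, against 36.1% and 5.87% of all regions. The median of WT minus KO was -2.86 points, and by common-region rank it turned to 7.23 (0.87 over all regions) with 5 WT-higher and 1 WT-lower of the 24, against 23.0% and 17.9% of all regions. Within GC bins it was 0.19.

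RSAD2 and CMPK2, antiviral genes with a shared promoter (chr2:6865112-6866188), went from 25.6 to 75.8 in WT_4, 35.4 to 77.3 in WT_5, 53.6 to 74.9 in KO_C5 and 7.38 to 75.5 in KO_D2. The IFNγ percentiles lay close together, but lists of different length set them, and by common-region rank the IFNγ values were 60.6, 34.2, 44.4 and 50.4 in the same order. CD274, which encodes the ligand PD-L1, rose by 17.7 points in WT_4, 13.4 in WT_5, 15.3 in KO_C5 and 19.1 in KO_D2. RBCK1, a subunit of the linear ubiquitin ligase complex, rose by 23.7, 21.8, 13.0 and 26.5, and USP18, which removes ISG15, by 26.0, 33.3, 13.9 and 34.2. These 4 promoters rose in every clone, and on the percentile scale the 2 genotypes overlapped. By common-region rank CD274 (36.4 and 24.8 points in WT, 19.2 and 21.3 in KO) and RBCK1 (41.7 and 29.8 in WT, 4.94 and 17.1 in KO) were WT-higher, and USP18 was so by summit pileup and within GC bins.

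The separated interferon promoters included PSME2 and ADAR (WT-lower) and NAMPT (WT-higher). PSME2 encodes a subunit of the proteasome activator PA28, and its region (chr14:24147179-24147738) also holds a start site of RNF31. It went from 41.9 to 28.4 in WT_4, 84.5 to 90.6 in WT_5, 30.1 to 89.8 in KO_C5 and 60.3 to 85.6 in KO_D2. ADAR, an RNA editing enzyme, rose by 4.16, 22.6, 28.6 and 60.1 points. ADAR was not separated by common-region rank. A neighbouring PSME2 region was not separated. NAMPT, the enzyme of NAD salvage, differed between WT_5 (-1.09) and KO_C5 (-1.31) by 0.22 points.

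Among 21 promoter regions of receptors, kinases, STAT and IRF factors 0 were WT-higher and 5 (23.8%) WT-lower, against 5.87% and 36.1% of all regions, with a median of WT minus KO of -2.61 points. By common-region rank 8 were WT-higher and 4 WT-lower, against 23.0% and 17.9% of all regions, with a median of 5.31. The receptor promoter IFNGR1 and the kinase promoter JAK2 were not separated, and both were WT-higher by common-region rank. IRF1 (chr5:132495585-132497415, upstream start) rose by 23.0 and 23.5 points in WT and by 15.9 and 56.2 in KO, where the KO clones lay on either side of WT.

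STAT2 and STAT3 were WT-lower near the top of the lists. STAT2, a subunit of ISGF3, went from 92.8 to 81.3 in WT_4, 99.1 to 99.5 in WT_5, 89.2 to 99.3 in KO_C5 and 94.2 to 98.4 in KO_D2. STAT3 went from 88.2 to 93.8, 97.6 to 98.9, 72.9 to 97.3 and 87.6 to 98.2. TYK2, a Janus kinase of the type I receptor, rose by 0.97 and 6.91 points in WT and by 34.7 and 22.3 in KO. JAK1 was WT-lower at its upstream start (chr1:65066550-65067975) and PIM1, a STAT-induced kinase, by a gap of 1.66 points. Within GC bins TYK2 and JAK1 remained WT-lower and STAT2, STAT3 and PIM1 were not separated, while by common-region rank and by pileup JAK1 alone of these 5 was not separated.

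The MHC class I and processing list gave 9 regions, of which 2 (22.2%) were WT-lower and 1 (11.1%) WT-higher, against 36.1% and 5.87% of all regions, with a median of WT minus KO of -6.72 points (4.41 by common-region rank and 2.80 within GC bins). PSMB10, an immunoproteasome subunit (chr16:67935552-67936152), went from 61.4 to 52.6 in WT_4, 85.0 to 88.7 in WT_5, 39.4 to 85.8 in KO_C5 and 62.7 to 87.7 in KO_D2. The 2 chaperones of class I folding lay on opposite sides: CALR was WT-lower (-6.85 and 0.61 points in WT, 15.6 and 5.59 in KO) and one CANX start WT-higher (14.0 and 6.63 in WT, -2.89 and 0.60 in KO). CALR was WT-higher within GC bins. The peptide transporter promoters TAP2 and PSMB9 with TAP1 were not separated.

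The MHC class II list gave 7 regions, all at regulators and HLA-DMA, since promoters of most class II genes had no peak in some list. NFYA and NFYB, subunits of the factor that binds CCAAT boxes, were WT-lower by gaps of 0.59 and 4.51 points, and CREB1 was WT-higher by 0.58 (28.6% and 14.3% of the list, against 36.1% and 5.87% of all regions). The median of WT minus KO was -7.27 points, and -0.18 by common-region rank. The promoters listed here as ZBTB48 targets were the 6 of CIITA, MTFP1, PXMP2, SNX15, TMEM63C and VWA5A. TMEM63C is not named in the study's main text. SNX15 and PXMP2 had a peak in all lists and neither was separated. PXMP2 was WT-higher by common-region rank and SNX15 WT-lower by fold enrichment. SNX15 changed by -0.73 and 4.69 points in WT and by 0.40 and 33.3 in KO. A target without a peak in some list could not be called separated. Untreated, 3 of the 6 promoters had a peak in WT_4, 5 in WT_5 and 2 in each KO clone. After IFNγ the counts were 5 in WT_4, 5 in WT_5 and 3 in each KO clone. CIITA, counted over all its annotated starts, had no peak in any untreated list and gained one in every clone of both genotypes. TMEM63C had a peak in the WT lists only.

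**Figure D4:**
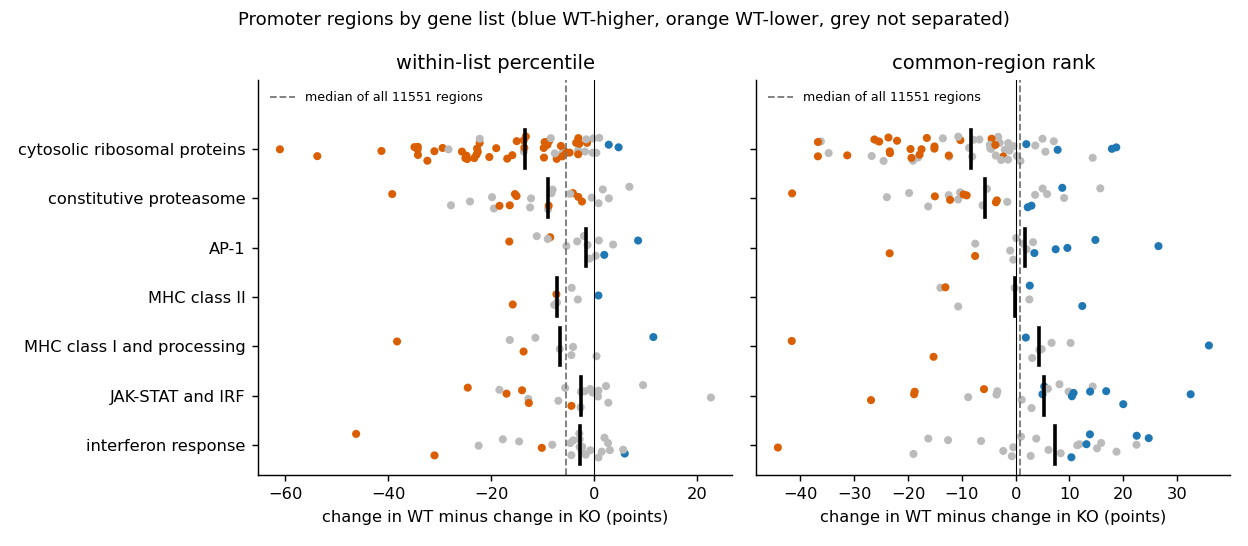
Change in WT minus change in KO (x axis, points) for promoter regions of 7 gene lists (y axis), by within-list percentile (left) and common-region rank (right). Black bars are list medians and the dashed line is the median of all regions. Ribosomal protein promoters lie lowest on both scales (-13.4 and -8.36), and interferon promoters move from -2.86 to 7.23.

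VMP1, a membrane protein of autophagy, had the widest gap of the WT-higher regions within 100 kb of a start site (chr17:59837539-59838142, intron, over an annotated start). Its percentile went from 38.8 to 59.4 in WT_4, 41.3 to 53.3 in WT_5, 69.6 to 43.6 in KO_C5 and 30.1 to 15.4 in KO_D2. By percentile both WT clones rose and both KO clones fell, although the untreated KO clones lay on either side of WT. By common-region rank the change at VMP1 was -0.56 in WT_5. ARSG, a lysosomal sulfatase, went from 66.2 to 80.6, 55.4 to 70.7, 70.1 to 62.3 and 66.2 to 55.8 in the same order. PITHD1 rose by 5.18 and 3.81 percentile points in WT and fell by 13.6 and 13.2 points in KO. These shifts rest on few fragments. Its summit pileup went from 19 to 22 in WT_4, 22 to 21 in WT_5, 23 to 20 in KO_C5 and 20 to 17 in KO_D2. By common-region rank the change at PITHD1 was -3.84 in WT_5. VMP1, ARSG and PITHD1 were WT-higher also by common-region rank, by summit pileup and within GC bins. These scales use the same peaks of the same libraries and are not independent of the percentile.

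**Figure D5:**
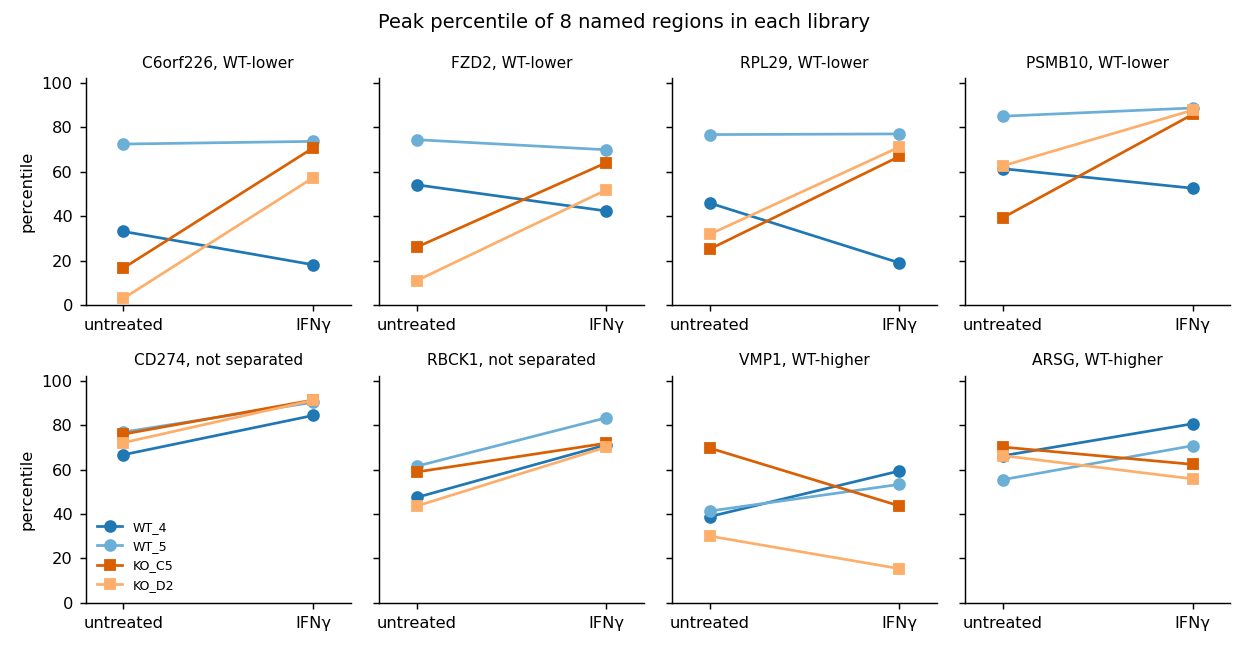
Percentile (y axis) in the untreated and IFNγ library (x axis) of each clone for 8 named regions, where each line is 1 clone. KO lines rise steeply at C6orf226, FZD2, RPL29 and PSMB10, all lines rise at CD274 and RBCK1, and WT lines rise while KO lines fall at VMP1 and ARSG.

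The AP-1 list, of FOS, JUN and related factors, gave 14 regions with 2 WT-lower and 2 WT-higher (14.3% each, against 36.1% and 5.87% of all regions) and a median of -1.68 points (1.68 by common-region rank). JUN was WT-lower (-0.99 and -0.91 points in WT, 25.6 and 5.58 in KO), and so was FOSL2. FOSB went from 78.9 to 86.3 in WT_4, 89.0 to 91.8 in WT_5, 83.5 to 79.3 in KO_C5 and 85.4 to 82.8 in KO_D2. MAFK was WT-higher by 0.78 points.

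Of 5 control regions 1 was WT-lower and 1 WT-higher (20.0% each, against 36.1% and 5.87% of all regions). Within GC bins the counts were 0 and 2, against 17.6% and 17.1% of all regions. GAPDH was WT-lower, with changes of 0.0023 and 2.01 points in WT and 17.3 and 6.24 in KO, and not so by common-region rank. The main ACTB promoter was WT-higher by 0.0078 points, at percentiles of 99.3 or more in every library. Of the marker genes, 3 of 5 mesenchymal regions (COL1A1, VIM and SNAI2) and KRT8, 1 of 2 epithelial regions, were WT-lower, against 36.1% of all regions. SNAI2 was not separated by common-region rank, by pileup or within GC bins. COL1A1, a bone matrix collagen, went from 80.2 to 70.8 in WT_4, 78.2 to 86.4 in WT_5, 51.2 to 82.3 in KO_C5 and 51.8 to 75.1 in KO_D2.

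Regions far from genes stood out among the WT-higher ones. Of 85 regions over 100 kb from a start site, 33 (38.8%) were WT-higher and 6 (7.06%) WT-lower, against 5.63% and 36.3% of nearer regions. Their median change was 6.19 points in WT_4, 2.66 in WT_5, -0.35 in KO_C5 and -18.5 in KO_D2, so the KO decline was that of KO_D2. In 60 of the 85 the sequence matched itself at a shift of about the unit length of alpha satellite repeats at over 40% of bases, against a median of 28.6% over all regions. The region at chr13:16566590-16566894, whose nearest gene is ENSG00000279924, went from 41.6 to 64.1 in WT_4, 44.3 to 68.0 in WT_5, 61.3 to 48.0 in KO_C5 and 57.4 to 35.2 in KO_D2. Reads of such repeats can be placed at several copies, and the part of their mapping was not tested. Without these regions 645 WT-higher and 4159 WT-lower regions were left.

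Position relative to genes otherwise differed little. A start site lay within 500 bp of 87.6% of WT-higher, 87.1% of WT-lower and 87.3% of all regions. On chromosome 19, 46.8% of 820 regions were WT-lower, and on chromosome 7, 11.6% of 525 were WT-higher, against 36.1% and 5.87% of all regions. These were the highest shares of any chromosome. Chromosome 18 was close to chromosome 7, with 11% WT-higher, and chromosome 19 had the lowest median GC content (68.8%).

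A CCAAT box lay within 150 bp of the summit in 1749 of 4165 WT-lower regions (42.0%), 166 of 678 WT-higher regions (24.5%) and 33.1% of all regions. The box was more frequent at low GC content in all regions, from 46.2% in the fifth with the lowest GC content to 21.9% in the highest. In the same GC groups the WT-lower regions had it in 50.8% and 24.6%. An ETS match (CCGGAAG) was found in 21.3% of WT-lower, 17.0% of WT-higher and 17.7% of all regions, and an AP-1 match (TGANTCA) in 8.02%, 3.98% and 6.24%.

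Matches to interferon motifs were rare in either group. A GAS match was found in 5.09% of WT-lower, 6.34% of WT-higher and 4.74% of all regions, and an ISRE match (GAAA, any 2 bases, GAAA) in 2.47%, 1.47% and 2.03%. The telomeric hexamer TTAGGG that ZBTB48 binds was found in 8.04%, 3.83% and 6.37%, and the control hexamer GTGAGT in 12.6%, 10.5% and 11.5%. All motifs were searched on both strands, and a match is a description of letters, not a site.

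Promoters without a peak in every list were described by presence alone. Of the 86 interferon genes, 7 gained a promoter peak with IFNγ in WT_4, 18 in WT_5, 22 in KO_C5 and 24 in KO_D2, and 2, 1, 0 and 0 lost one. Of 19962 protein-coding genes, 1.86%, 3.77%, 7.77% and 5.01% gained a promoter peak in the same order, so the KO lists gained more promoters in general. GBP5, a guanylate-binding protein, and SP100, of nuclear bodies, gained a peak in all 4 clones, which 6 protein-coding genes in all did (0.0301%). A gain in both KO clones and no WT clone was seen for 8 genes (APOL2, CASP8, CFB, DDX60, FAS, IFI16, IFIH1 and MX1), and for 354 protein-coding genes in all (1.77%). A gain in both WT clones and no KO clone was seen for 0 interferon genes and 14 protein-coding genes (0.0701%). A gain in both KO clones and WT_5, but not WT_4, was seen for APOL3, BST2, OAS2, SERPING1, SP110 and TRIM21, and for 47 protein-coding genes in all (0.235%). The 8 interferon genes that gained in KO alone already had a promoter peak in untreated WT_5.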

How the data were processed

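FAIRE-seq libraries of 4 U2OS clones, untreated and with IFNγ, were deposited as 8 peak lists. Per the study's methods and the submitters' processing notes, the authors aligned paired reads to GRCh38 with Bowtie2 2.2.5, removed alignments of mapping quality below 30 and called peaks per library with MACS2 2.2.7.1. The deposited columns hold fold enrichment (a ratio over local background) and p-values and q-values as −log10. The control and treatment of duplicates are not given in the sources used here. Read depth is unknown from the lists. The score column, which the authors' peak caller wrote as a multiple of −log10 q, was not used. For every peak the fold enrichment and −log10 p together gave the pileup at the summit and its local background.

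Overlapping peaks were merged, and the strongest peak per list was ranked by −log10 p. Within-clone changes were compared by limma 3.58.1 in R 4.3.3 (trend on mean percentile, Benjamini-Hochberg over 11551 regions) and by exact permutation of clones, two-sided. Scripts were tested on simulated lists with 200 planted genotype differences. By common-region rank limma called all 200 at a median SE of 2.81 points and 0 at 8.49. The deposited lists gave a median SE of 10.7 on that scale, so a lack of calls does not show equal changes. P-values measure only the spread between single clones. Genes are from GENCODE 44. A promoter region lies within 500 bp of a start site. Named regions were the 10 with the widest gap in each direction, separated members of the gene lists (up to 4 a list and direction) and all regions of the interferon, JAK-STAT, MHC, target and control lists. The members and lists were chosen with earlier results of these data known. Alternatives were common-region rank, pileup, fold enrichment, lists of equal length, logit, GC bins and leaving out a clone. Some named regions and sequences are not reported here.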

Additional observations from a re-analysis of the deposited data

Results flagged for a closer look

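In 19 of the named regions both WT clones moved one way with IFNγ and both KO clones the other, by within-list percentile. These signs depend on the scale and did not all hold by common-region rank. On that scale WT_5 changed by -3.84 at PITHD1, -3.78 at ROCK1, -1.70 at RPL35 and -0.56 at VMP1. WT_4 changed by 2.79 at JUN and 0.92 at ENSG00000259891. Each value is the mean WT change minus the mean KO change in percentile points. The signs alone picked these regions, the difference was not tested beyond limma, and by limma none had an adjusted p under 0.326.

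In 11 regions WT rose and KO fell. The difference was 2.78 at RPS21, 4.69 at RPL35, 8.48 at FOSB, 17.9 at PITHD1, 23.9 at ARSG and 36.6 at VMP1. Regions nearest to ENSG00000263433, ENSG00000276118 and ROCK1 gave 20.9, 26.8 and 26.6, and 2 regions nearest to ENSG00000279924 gave 32.9 and 40.8.

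In 8 regions WT fell and KO rose. The difference was -55.9 at LINC02703, -52.0 at ALG10, -51.5 at SLC39A10, -50.6 at UST, -48.2 at ENSG00000259891, -47.6 at FZD2, -16.5 at JUN and -4.46 at PIM1.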

How the results depend on the processing

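The split of the separated regions depended on the scale. WT-higher regions numbered 2652 by common-region rank, 2869 by log2 summit pileup, 2770 with lists of equal length, 1943 after centring each clone on its median, 1970 within GC bins and 2158 by rank within GC bins, and 1060 to 2925 with 1 clone left out. WT-lower regions numbered 2073, 1609, 1550, 2485, 2033 and 2301 in the same order, and 4798 to 8007 with 1 clone left out. The separated total was then 7717 to 9067, since 3 clones are easier to separate. The difference in median change turned to 1.94 by rank, 0.13 by pileup (log2) and 2.46 with equal lists, and ranged from -7.98 to -1.50 with 1 clone left out. The difference in list length ranged from -10902 to -133.5 peaks.

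By limma 38 regions were called within GC bins and 289 on the logit scale. Leaving out 1 clone gave 0 to 723 calls: 0 without WT_4, 2 without WT_5, 15 without KO_C5 and 723 without KO_D2, where the lone clone is assumed to vary like the other genotype. Replicate numbers in the labels pair WT_4 with KO_C5 and WT_5 with KO_D2, which share only a number (correlation of their deviations 0.23). With that number as a replicate block there were 0 calls (2068 at an unadjusted p under 0.05), and with no replicate block, all 8 libraries fitted without the clone, there were 0 (73 at an unadjusted p under 0.05).

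The list medians by common-region rank were 7.23 for interferon, 5.31 for JAK-STAT, 4.41 for MHC class I, -0.18 for MHC class II, 3.54 for ZBTB48 targets, 1.68 for AP-1, -8.36 for ribosomal, -5.73 for proteasome, 3.56 for control and -2.69 for mesenchymal promoters. Within GC bins they were 2.80 for MHC class I, -1.31 for MHC class II, 1.78 for AP-1, 1.34 for ribosomal, 2.43 for proteasome and 3.55 for control promoters. Over whole regions the CCAAT box share was 44% in WT-higher, 58.6% in WT-lower and 51.7% in all regions. Of 54 named separated regions, 48 kept their direction by common-region rank, 45 by pileup, 53 by fold enrichment and 35 within GC bins. Single regions that turned were ACTB (-5.69 by rank within GC bins) and CALR (2.80 within GC bins). The cause of these changes was not tested. The GC bins and the centring on clone medians were chosen after seeing the data. Read depth is not given in peak lists, and with 2 clones a genotype no permutation p can be under 0.333.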

Other observations

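The 38 regions that limma called within GC bins were 37 WT-higher and 1 WT-lower, with a lowest adjusted p of 3.52e-05. Of these, 19 lay over 100 kb from a start site and 15 matched themselves at the alpha satellite shift at over 40% of bases. Their median change was 11.0 points in WT_4, 0.64 in WT_5, -0.11 in KO_C5 and -10.5 in KO_D2, so WT_4 and KO_D2 carried it. Of the 37, 20 were WT-higher by percentile, 2 (RPS24 and TLE3, named after their values were seen) were WT-lower, and in 6 the uncentred difference was 0 or below. At LINC01691 the change was 0 in all 4 clones, so its call comes from the centring. This scale was added after the data were seen.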
